A study of Mus musculus with 6 samples.

Results

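The genes described here are 9 surface molecules that restrain T cells or mark exhausted ones: Pdcd1 (PD-1), Btla, Tigit, Cd160, Lag3, Havcr2 (TIM-3), Cd200, Cd101 and Cd38. They were chosen by name, and all 9 were found among the 23951 gene rows of the deposited table. RNA was sequenced from mouse CD8+ T cells of 2 genotypes, with 3 libraries each. Both genotypes carried hCD2-Cre, a Cre recombinase driven by human CD2 sequences, and Rosa26-lsl-GFP, a reporter that turns green where Cre has acted. Wild-type (WT) mice had unmodified Tcf1 and Lef1 genes, and the other mice had floxed alleles of both (labelled Tcf1-/-Lef1-/-, called DKO here). Tcf1, encoded by Tcf7, and Lef1 are related DNA-binding factors that keep T cells naive or stem-like. Spleen cells of the phenotype GFP+ TCRbeta+ CD62Lhi CD44lo-med CD8+ were sorted and cultured in IL-7 plus IL-15 for 72 h, cytokines that sustain resting T cells without antigen. The authors' table also compares these groups with a 0 h group of each genotype, whose libraries are not analysed here. Age, strain and sex of the mice and the origin of the libraries (separate animals, pools or cultures) are not given in the sources used here, so p-values measure the spread between libraries, which may be technical.

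Inhibitory receptors are surface proteins that dampen signals from the T cell receptor, often through tyrosine motifs in the tail that recruit the phosphatases SHP-1 and SHP-2. In CD8+ T cells that meet antigen for a long time several of them are carried together, a state called exhaustion, and Tcf1 marks the less differentiated exhausted cells. Some of the same genes are active in cells that are not exhausted: BTLA is carried by resting lymphocytes, CD160 by NK cells and some memory cells, and CD38 by many activated and immature cells.

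Promoter sequence is shown for the pair of members called different at 72 h, Btla and Cd101, and for Cd160, the only one of the 8 members with a listed promoter that held a match to the TCF/LEF motif. The sequences are the 250 bases before a RefSeq start on GRCm38.p6, written 5′ to 3′ on the gene's strand, with matches to the TCF/LEF core in capitals. The core was searched on both strands as CTTTGAA, a second form of it as CTTTGAT and a further one as CTTTGTT. The Btla window is chr16:45224087-45224336 on the plus strand, that of Cd101 chr3:101029554-101029803 on the minus strand and that of the downstream start of Cd160 chr3:96814522-96814771 on the minus strand.
Btla: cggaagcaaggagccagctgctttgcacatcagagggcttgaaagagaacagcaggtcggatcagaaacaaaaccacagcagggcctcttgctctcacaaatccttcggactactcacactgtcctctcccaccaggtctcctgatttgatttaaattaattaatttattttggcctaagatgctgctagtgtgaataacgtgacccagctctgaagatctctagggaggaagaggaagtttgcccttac
Cd101: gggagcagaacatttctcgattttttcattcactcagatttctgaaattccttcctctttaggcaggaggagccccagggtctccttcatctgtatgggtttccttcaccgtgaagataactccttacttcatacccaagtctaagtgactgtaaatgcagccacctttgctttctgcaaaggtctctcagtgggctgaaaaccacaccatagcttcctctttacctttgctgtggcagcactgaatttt
Cd160: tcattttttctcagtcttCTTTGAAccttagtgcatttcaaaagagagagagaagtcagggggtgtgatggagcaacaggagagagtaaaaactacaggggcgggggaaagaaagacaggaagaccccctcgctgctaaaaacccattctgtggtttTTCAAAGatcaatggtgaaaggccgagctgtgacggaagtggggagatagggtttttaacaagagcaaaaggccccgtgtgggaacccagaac
Promoters were listed for 8 of the 9 genes, with 2 starts for Cd160, and Lag3 had no entry. Of these 9 windows 1 held a match, against 12% of all 32851 promoters and 8.37% of the 9995 promoters of genes averaging 1 FPKM or more. The Cd160 window held CTTTGAA on the gene's strand, starting 232 bases before the start, and its reverse complement starting 93 bases before it. A match is a run of letters and not a measured binding site.

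Levels are FPKM, fragments scaled to transcript length and library size, so levels of different genes can be set side by side but the number of fragments per library is unknown. From the spacing of low FPKM values, relative depth ran from 1.0 to 1.229 among WT and from 1.1 to 1.187 among DKO libraries. These depths are rough. In the libraries set against WT library 0, only 17.8% to 21.7% of the low genes compared lay near the most common ratio. The labels were checked on the targeted genes: in DKO libraries Lef1 stood at 48.5 to 52.2 FPKM against 105 to 157 FPKM in WT, and Tcf7 at 270 to 288 FPKM against 532 to 564 FPKM. At 0 h, Lef1 was lower in DKO in the authors' deposited table (log2 fold change of -1.51, q = 0.00031), but Tcf7 was not called (-0.10, q = 0.53), so at 0 h the label is borne out by Lef1 alone. These RNA levels do not show that either protein was absent. Cells of both groups had the RNA of CD8+ T cells, with Cd8a at 551 to 665 FPKM over the 6 libraries, and 0 of 8 T cell markers were called by limma, with 2 at an unadjusted p under 0.05 (Cd3d and Zap70, both lower in DKO). WT library 0 and DKO library 2 had been singled out by a prior analysis of these data. Their deviations from their group means correlated with each other at r = 0.13 over the genes tested. Those of WT library 1 and DKO library 0 correlated at r = 0.10. Over all pairs of a WT and a DKO library r ran from -0.17 to 0.13. Without WT library 0 and DKO library 2 together limma called 28 genes in place of 1144, while 2462 against 2808 had an unadjusted p under 0.05. That run leaves 2 libraries in each group. No other pair was left out, so the part of these particular libraries in the loss was not tested. Libraries are called by their column numbers, which need not match the replicate numbers in the labels.

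In the cultured cells Btla was far above the other members. It took 74.4% to 81.7% of the summed FPKM of the 9 genes in the WT libraries and 53.4% to 64.6% in the DKO libraries. Its WT mean lay above 86.1% of all gene rows, while the WT means of the other 8 genes lay between the 49.4% of Havcr2 and the 58.9% of Tigit. In WT the order of mean level was Btla, Tigit, Cd160, Cd101, Pdcd1, Cd38, Lag3, Cd200 and Havcr2. Only the steps from Btla to Tigit and from Cd160 to Cd101 had libraries that did not overlap between neighbours. In DKO, Cd101 moved from the fourth to the second place, and its libraries overlapped neither those of Btla above nor those of Tigit below. The steps from Tigit to Cd160 and from Cd38 to Cd200 also did not overlap in DKO, and the other neighbours did. The classical receptors of exhaustion, Pdcd1, Lag3 and Havcr2, stayed at or below 1.39 FPKM in every library of either genotype.

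**Figure D1:**
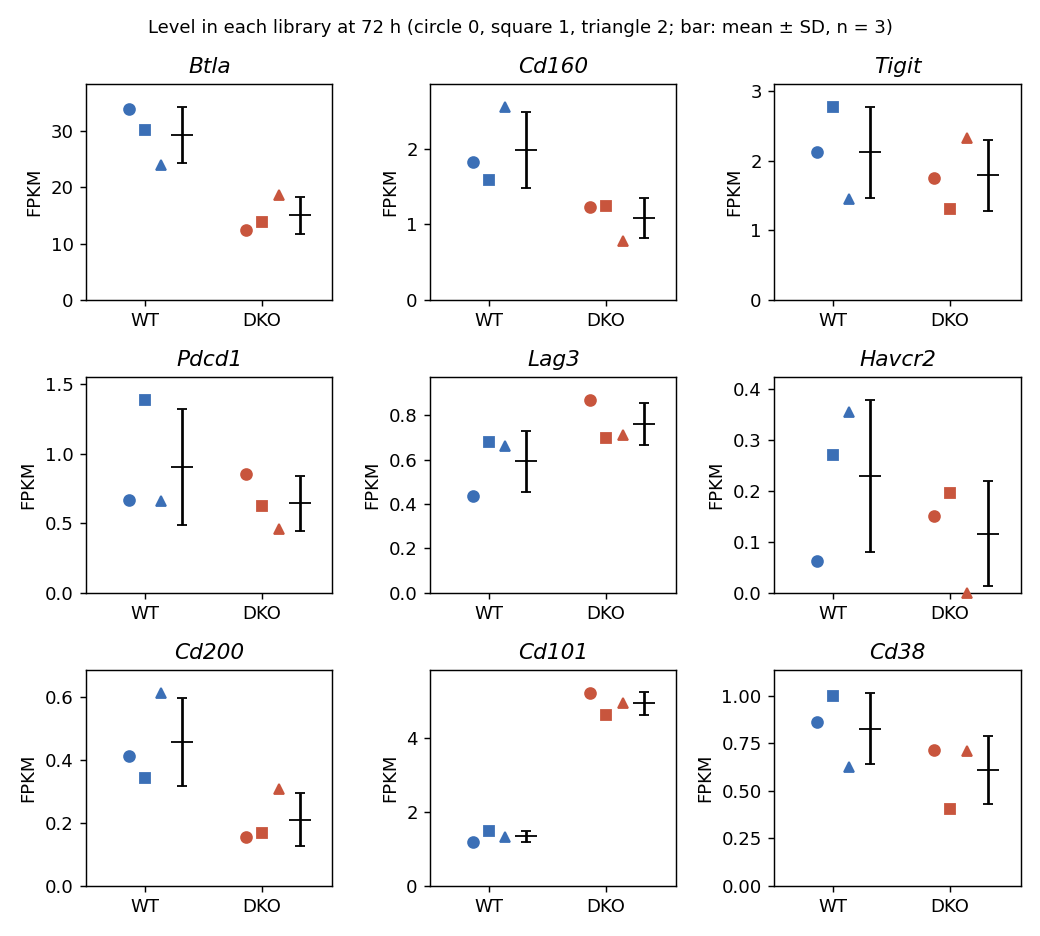
FPKM of the 9 genes (one panel each, vertical axes from 0) in each of 3 WT and 3 DKO libraries at 72 h, with the mean ± SD beside the points. Cd101 is higher and Btla and Cd160 are lower in every DKO library than in every WT library, and Cd200 and, by a small margin, Lag3 also do not overlap, while Tigit, Pdcd1, Havcr2 and Cd38 do. Of genes averaging 1 FPKM or more, 17.0% are higher and 17.1% lower in DKO with no overlap. Of genes averaging 0.1 to 1 FPKM, 9.32% are higher and 11.7% lower.

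A pair of members differed at 72 h by limma on log2(FPKM + 1): Cd101 was higher and Btla lower in DKO cells. Of the 9 genes, 4 averaged at least 1 FPKM across all libraries and were tested (Btla, Cd101, Cd160 and Tigit), and 5 lay below (Pdcd1, Lag3, Havcr2, Cd200 and Cd38). Of all 10723 genes tested, 4.31% were called higher and 6.36% lower at an adjusted p under 0.05. In bulk RNA, fewer cells that express a gene and less RNA per cell cannot be told apart.

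Btla encodes an immunoglobulin-family receptor with inhibitory tyrosine motifs that binds HVEM. WT libraries 0, 1 and 2 held 33.9, 30.2 and 23.9 FPKM of it, and DKO libraries 0, 1 and 2 held 12.5, 13.9 and 18.7 FPKM. Every DKO library was lower than every WT library, as was so for 17.1% of the genes tested. The nearest pair, WT library 2 and DKO library 2, differed by far less than the means. The means were 29.3 ± 5.03 and 15.0 ± 3.21 FPKM (SD, n = 3 each), a 1.95-fold lower level in DKO, which is -0.92 ± 0.18 (SE) on the log2(FPKM + 1) scale (limma adjusted p = 0.032). The direction held with each library left out, with log2 fold changes of -1.08 to -0.81. The call was lost on leaving out WT library 0 or 1 (limma adjusted p = 0.081 and 0.091) or DKO library 0 or 1 (limma adjusted p = 0.11 and 0.12). In the authors' deposited table Btla has a log2 fold change of -0.96 with q = 0.00064. The share of all genes in the authors' own lists of called genes at 72 h, which hold only log2 fold changes beyond 1 in size, was 5.22%, and of the members Cd101 alone is in them.

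Cd160 encodes a small receptor, held in the membrane mostly by a lipid anchor, that shares the ligand HVEM with BTLA. Its FPKM were 1.83, 1.59 and 2.56 for WT and 1.23, 1.25 and 0.781 for DKO, in library order. Every DKO library was lower than every WT library, as was so for 17.1% of the genes tested. The means were 1.99 ± 0.505 and 1.09 ± 0.265 FPKM, and the log2 fold change of -0.51 (95% interval -0.96 to -0.07) did not pass the test over all genes (limma adjusted p = 0.14). In the authors' deposited table it was lower, with a log2 fold change of -0.87 and q = 0.019, but it is not in their own list of called genes. In GENCODE M21, 68 exon bases of Cd160 overlap exons of Pdzk1 on the opposite strand, and Pdzk1 stood at 0.89 to 1.94 FPKM. Whether the counting used strand is not stated, so reads in that stretch cannot be assigned to one gene. NK cells also carry CD160. The 8 NK markers summed to 3.23 to 7.47 FPKM in WT and 6.04 to 13.9 FPKM in DKO, with overlap. Of them 2 passed the filter and 0 were called by limma, with 1, Tyrobp, at an unadjusted p under 0.05. At the lower filter of 0.1 FPKM, Klri2 was called higher in DKO (means of 0.0507 and 0.643 FPKM, limma adjusted p = 0.0085). Fcgr3 and Zbtb16 were higher in every DKO library than in every WT library and were not called (limma adjusted p = 0.23 and 0.13), and Klrb1c, Klra8, Ncr1 and Fcer1g overlapped. The part of NK cells in the Cd160 values was not tested.

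Tigit encodes a receptor for the poliovirus receptor CD155 that competes with the activating receptor CD226. In WT libraries it reached 2.13, 2.77 and 1.45 FPKM, against 1.75, 1.30 and 2.32 FPKM for DKO. The groups overlapped, with the lowest DKO library below the lowest WT library and the highest DKO library above 2 of the 3 WT libraries. Its log2 fold change was -0.15 (95% interval -0.68 to 0.37, limma adjusted p = 0.68).

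Cd101 encodes a large immunoglobulin-family glycoprotein that inhibits T cell activation and, in chronic infection of mice, marks terminally exhausted CD8+ T cells. Its WT libraries held 1.17, 1.49 and 1.32 FPKM and its DKO libraries 5.22, 4.62 and 4.94 FPKM. The lowest DKO library lay far above the highest WT library, and 17.0% of the genes tested were higher in DKO with no overlap. The means were 1.33 ± 0.157 and 4.93 ± 0.301 FPKM (SD, n = 3 each), a 3.71-fold rise, or 1.35 ± 0.10 (SE) on the log2(FPKM + 1) scale (limma adjusted p = 0.0028). The call held with each library left out, with limma adjusted p between 0.0053 and 0.020, and was lost without WT library 0 and DKO library 2 together (limma adjusted p = 0.075). Beside this rise, markers of myeloid cells, which also carry CD101, summed to 3.11 to 11.2 FPKM in WT and 3.53 to 7.12 FPKM in DKO. Of these 10 markers 3 passed the filter and 0 were called by limma, with 0 at an unadjusted p under 0.05, and the groups overlapped for all 10. Cd14 was at 0 in every DKO library and in 2 WT libraries, and means for WT and DKO were 2.11 and 2.04 FPKM of Cd68, 0.263 and 0.407 FPKM of Itgam and 0.196 and 0.483 FPKM of Itgax. Of 6 markers of CD4 and regulatory T cells, 3 were called higher (Foxp3, Ikzf4 and Il2ra). The sum of all 6 was 27.4 to 29.3 FPKM in WT and 150 to 211 FPKM in DKO, most of it Foxp3 and Il2ra. Cd4 itself was at 0 to 0.0735 FPKM in WT and 0.389 to 1.90 FPKM in DKO. It was not called at the filter of 0.1 FPKM (limma adjusted p = 0.15). Cd40lg (limma adjusted p = 0.48 at that filter) and Zbtb7b, which lay below it, overlapped between the genotypes. Foxp3, the defining factor of regulatory T cells, ranged from 1.46 to 5.38 FPKM among WT and from 97.2 to 116 FPKM among DKO libraries (limma adjusted p = 0.0029). Ikzf4 lost its call without WT library 2 or DKO library 0 or 2 (limma adjusted p of 0.053 to 0.067), and Il2ra without WT library 0 or 2 or DKO library 1 or 2 (0.064 to 0.092). The part of myeloid, CD4 and regulatory T cells in the results was not tested.

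Pdcd1 encodes PD-1, the receptor for PD-L1 and PD-L2. Its WT values were 0.665, 1.39 and 0.664 FPKM and the DKO values 0.852, 0.625 and 0.459 FPKM, and the single high WT library set most of the spread. Lag3 encodes a CD4-like receptor for MHC class II. Its WT libraries held 0.435, 0.679 and 0.661 FPKM and its DKO libraries 0.870, 0.699 and 0.709 FPKM, with every DKO library just above every WT library. Havcr2 encodes TIM-3, a mucin-domain receptor. WT libraries 0, 1 and 2 held 0.0621, 0.271 and 0.354 FPKM of it, DKO libraries 0 and 1 held 0.151 and 0.196 FPKM, and DKO library 2 listed it at 0. Havcr2 had the lowest mean of the members in both genotypes, and its groups overlapped.

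Cd200 encodes a surface ligand that inhibits cells bearing CD200R. Its FPKM were 0.414, 0.342 and 0.614 for WT and 0.155, 0.168 and 0.308 for DKO, and the groups did not overlap. Cd38 encodes an enzyme on the cell surface that consumes NAD and is used as a marker of dysfunctional T cells. In WT libraries it reached 0.860, 0.998 and 0.624 FPKM, against 0.714, 0.403 and 0.709 FPKM for DKO, with overlap. Of the 2360 genes with means of 0.1 to 1 FPKM, 9.32% were higher and 11.7% lower in DKO with no overlap, as Lag3 and Cd200 were.

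With the filter lowered to 0.1 FPKM all 9 genes were tested, and 3.44% of 13083 genes were called higher and 5.3% lower. Again Cd101 and Btla alone among the members were called (limma adjusted p = 0.0025 and 0.036). The log2 fold changes and 95% intervals of the low genes on log2(FPKM + 1) were -0.20 (-0.63 to 0.23) for Pdcd1, 0.15 (-0.09 to 0.38) for Lag3 and -0.14 (-0.44 to 0.16) for Havcr2. They were -0.27 (-0.51 to -0.02) for Cd200 and -0.18 (-0.49 to 0.12) for Cd38, with limma adjusted p = 0.18 and 0.42. At these levels the added 1 FPKM makes the fold changes smaller than the ratios of the means, which were 2.17-fold lower for Cd200 and 1.36-fold lower for Cd38. The exact two-sided permutation test gave p = 0.1 for Cd200 and Lag3, the smallest that 3 against 3 libraries allow.

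The authors' comparisons place the genotype effect at 0 h beside that at 72 h. At 0 h, Lag3, Cd101 and Cd38 were higher and Cd160 and Cd200 lower in DKO, by the q-values of the authors' deposited table. These directions rest on groups labelled WT and DKO at 0 h, between which Tcf7 was not called. That is 3 higher and 2 lower of 7 members tested by the authors, where 14.7% of all genes they tested were higher and 16.9% lower at q under 0.05. Lag3 was 8.27-fold higher (log2 fold change of 3.05, q = 0.00031 in the authors' deposited table) and Cd101 3.59-fold higher (1.84, q = 0.00031). Cd38 was 1.54-fold higher (0.63, q = 0.0067 in the authors' deposited table). Cd200 was 2.89-fold lower and Cd160 2.19-fold lower (log2 fold changes of -1.53 and -1.13, q = 0.00031 each in the authors' deposited table). Btla did not pass (log2 fold change of -0.22, q = 0.081 in the authors' deposited table), nor did Tigit (-0.18, q = 0.60), and the authors did not test Pdcd1 and Havcr2. Cd4, the neighbour of Lag3 on chromosome 6 and a marker of another T cell lineage, was also higher at 0 h (log2 fold change of 2.74, q = 0.00031 in the authors' deposited table), and its part in the Lag3 difference was not tested.

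At 72 h, by q under 0.05 in the same table, Cd101 was higher and Cd160 and Btla lower, against 6.46% of genes higher and 9.87% lower. The genotype effect on Cd101 was 1.84 at 0 h and 1.89 at 72 h (log2 fold changes in the authors' deposited table). For Cd160 it was -1.13 at 0 h and -0.87 at 72 h, and for Cd200 -1.53 and -1.12, the latter not tested by the authors. That of Lag3 was 3.05 at 0 h and 0.36 at 72 h (q = 0.64 in the authors' deposited table), and that of Cd38 0.63 and -0.44 (q = 0.42). For Btla it was -0.22 at 0 h and -0.96 at 72 h in the authors' deposited table. Differences between the times were not tested, since no 0 h library is analysed here.

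**Figure D2:**
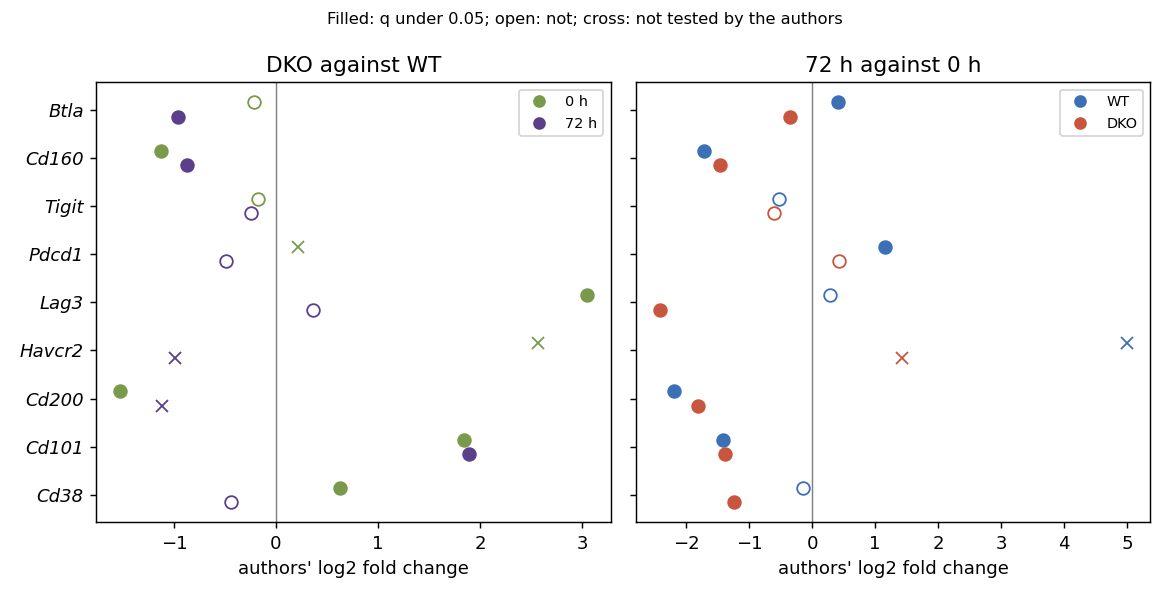
Log2 fold changes of the 9 genes in the authors' deposited table, for DKO against WT at 0 h and 72 h (left) and for 72 h against 0 h in WT and DKO (right), with filled points at q under 0.05, open points above it and crosses for genes the authors did not test. Lag3 is at 3.05 at 0 h and 0.36 at 72 h on the left, and Cd101 lies at 1.84 and 1.89.

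Most members with q under 0.05 between the times were lower at 72 h than at 0 h, and Lag3 was among them in DKO cells. In WT cells Cd160, Cd200 and Cd101 were lower and Pdcd1 and Btla higher at 72 h, by q under 0.05 in the authors' deposited table. Of all genes, 22.1% were lower and 25.8% higher at that cut. In DKO cells 6 members were lower at the same cut (Lag3, Cd160, Btla, Cd200, Cd101 and Cd38) and 0 higher, where 20.4% of genes were lower and 24.8% higher. The authors' own lists of called genes hold 3 members for WT and 4 for DKO, without Pdcd1 and Btla in WT and without Btla and Cd200 in DKO. Pdcd1 in WT (log2 fold change of 1.15, q = 0.011 in the authors' deposited table) and Cd200 in DKO (-1.81, q = 0.0012) exceeded 1 in size. Fold change and q alone therefore do not set these lists, and their further criterion was not identified. By the Cuffdiff p of the same table, 0 members were higher in DKO at an unadjusted p under 0.05. Lag3 fell 5.36-fold in DKO (log2 fold change of -2.42, q = 0.00023 in the authors' deposited table), and in WT its log2 fold change of 0.28 did not pass (q = 0.56). The authors' group values at 72 h divided by their fold changes put Lag3 at about 4.07 FPKM in DKO and 0.487 FPKM in WT at 0 h. Cd101 fell in both genotypes (2.66-fold in WT and 2.6-fold in DKO in the authors' deposited table), from about 3.53 and 12.8 FPKM. Cd160 fell 3.27-fold in WT and 2.77-fold in DKO, from about 6.51 and 3.0 FPKM, and Cd200 fell 4.6-fold and 3.5-fold, from about 2.1 and 0.736 FPKM (fold changes of the authors' deposited table). Btla rose 1.33-fold in WT (q = 0.0046 in the authors' deposited table) and fell 1.28-fold in DKO (q = 0.0079). Pdcd1 rose 2.21-fold in WT (q = 0.011 in the authors' deposited table), and in DKO its 1.34-fold higher value did not pass (q = 0.35). Cultured DKO cells set against WT cells at 0 h, which changes genotype and time at once, were lower in Cd200, Cd160, Tigit and Btla (10.06-fold, 6.04-fold, 1.72-fold and 1.48-fold, with q = 0.00021, 0.00021, 0.021 and 0.00021 in the authors' deposited table), where 20.8% of genes were lower at q under 0.05. Cd101 was 1.38-fold higher (q = 0.0060 in the authors' deposited table), where 24.5% were higher. The comparisons share libraries with one another, so their values are not independent.

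Genes that act with the members were taken from 4 lists, which hold ligands and partners, other inhibitory and costimulatory receptors, inhibitory signalling genes and transcription factors of exhaustion. Of 67 listed genes past the filter, 13 were higher and 8 lower by limma, against 4.31% and 6.36% of all genes tested. Without WT library 0 and DKO library 2 together 0 of them were called by limma, with 28 at an unadjusted p under 0.05. The lists were chosen with earlier results of these data known, so their counts are not independent support. Some called genes passed the filter only through the group where they were higher, as given for each below. Some genes named in the next paragraphs are not named by the rule in the methods and were picked with their values known: Cd200r1, Cd48, Cd86, Cd96, Lgals3, Tnfrsf14, 4632428N05Rik, Ptpn6, Ubash3b, Nfatc2 and Tox.

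Ligands and partners held the most calls, with 6 higher and 2 lower of 13, against 4.31% and 6.36% of all genes tested. Their median log2 fold change was 0.36, against 0.01 over all genes tested. These counts and the median include Pdcd1lg2, Cd200r1 and Lgals3, which passed the filter only through the group where they were higher. Pdcd1lg2 encodes the PD-1 ligand PD-L2, and its means were 0.10 ± 0.0355 FPKM for WT and 2.53 ± 0.485 FPKM for DKO (SD, n = 3 each, limma adjusted p = 0.0041). Its DKO level alone carried it past the filter, and without DKO library 0 it fell below. Pvr, the mouse CD155 gene and ligand of TIGIT, rose from 3.44 ± 1.01 to 10.7 ± 0.994 FPKM (limma adjusted p = 0.010). Cd226, the activating receptor that competes with TIGIT, fell from 42.3 ± 2.52 to 21.0 ± 0.235 FPKM (limma adjusted p = 0.0026), while Tigit itself overlapped between the genotypes. Tnfrsf14 (HVEM), the partner of BTLA and CD160, ranged from 43.2 to 55.6 FPKM among WT and from 39 to 58.8 FPKM among DKO libraries, with overlap. Cd200r1, the receptor for CD200, was called higher at 2.37 to 4.56 FPKM against 0.55 to 1.26 FPKM, passed the filter only through DKO, and lost its call on leaving out any 1 library (limma adjusted p of 0.054 to 0.10). Cd86, a ligand of CTLA-4 and CD28, Cd48, a ligand of CD244, and Cd96, a receptor for CD155, were also higher (limma adjusted p = 0.011, 0.019 and 0.032), and Lgals3, which encodes galectin-3, was lower (limma adjusted p = 0.022) and passed the filter only through WT. Cd86 lost its call without DKO library 1 (0.060), Cd48 without any library but WT library 1 (0.053 to 0.098), Cd96 without any 1 library (0.066 to 0.12) and Lgals3 without any 1 DKO library (0.054 to 0.079).

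Among other inhibitory and costimulatory receptors 3 were higher and 1 lower of 16, against 4.31% and 6.36% of all genes tested. The median log2 fold change was 0.06. The counts include Entpd1 and Lilrb4, which passed the filter only through the group where they were higher. Entpd1 (CD39), an enzyme that degrades extracellular ATP, and Ctla4, the inhibitory receptor for CD80 and CD86, were called higher (limma adjusted p = 0.0027 and 0.0041). Entpd1 ranged from 5.64 to 7.45 FPKM and Ctla4 from 25.2 to 29.0 FPKM among DKO libraries, against 0.755 to 1.06 and 11.7 to 13.9 FPKM among WT libraries, and Entpd1 passed the filter only through DKO. The gene 4632428N05Rik, which encodes the inhibitory receptor VISTA, was the third called higher (limma adjusted p = 0.032), and lost its call without WT library 0 or 1 or DKO library 0 or 1 (0.084 to 0.13). Lilrb4, an inhibitory receptor gene, had 4.64, 5.75 and 2.0 FPKM in the WT and 0.367, 0.104 and 0.545 FPKM in the DKO libraries (limma adjusted p = 0.023). It passed the filter only through WT, may share reads with a close paralog, and lost its call without WT library 0 or 1 or any 1 DKO library (limma adjusted p of 0.057 to 0.088).

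Inhibitory signalling genes had 2 higher and 3 lower of 25, against 4.31% and 6.36% of all genes tested, with a median log2 fold change of -0.01. Inpp5d, the lipid phosphatase SHIP-1, rose from 31.0 ± 3.18 to 49.5 ± 1.22 FPKM (limma adjusted p = 0.011), and lost its call without DKO library 0 or 1 (0.054 and 0.053). Sh2d1a, the adaptor SAP of SLAM receptors, fell from 39.4 ± 5.40 to 19.2 ± 1.67 FPKM (limma adjusted p = 0.0074). Cblb, a ubiquitin ligase that restrains T cell receptor signals, fell from 21.6 ± 1.97 to 14.4 ± 0.991 FPKM (limma adjusted p = 0.019), and lost its call without WT library 0 or 2 or DKO library 0 or 1 (0.053 to 0.086). Ptpn6, the phosphatase SHP-1 that inhibitory tails recruit, ranged from 104 to 125 FPKM among WT and from 67.7 to 81.5 FPKM among DKO libraries (limma adjusted p = 0.027). Ubash3b, a phosphatase that dampens T cell receptor signals, was higher (limma adjusted p = 0.036). Ptpn6 lost its call without any library but WT library 0 (0.066 to 0.087), and Ubash3b without any 1 library (0.074 to 0.13).

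Of 13 transcription factors past the filter 2 were higher and 2 lower, against 4.31% and 6.36% of all genes tested. The median log2 fold change was -0.11. The counts include Prdm1, which passed the filter only through DKO. Eomes, a T-box factor of effector and exhausted cells, had 65.5, 90.1 and 42.1 FPKM in the WT and 4.14, 12 and 11.9 FPKM in the DKO libraries (limma adjusted p = 0.018). That call did not survive leaving out WT library 0 or 1 or DKO library 1 (0.057, 0.055 and 0.051). Prdm1 (Blimp-1), a factor of terminal differentiation, averaged 0.261 ± 0.120 FPKM among WT and 2.02 ± 0.455 FPKM among DKO libraries (limma adjusted p = 0.011), and passed the filter only through DKO and not without DKO library 1 or 2. Bhlhe40, a helix-loop-helix repressor, rose from 3.56 ± 0.113 to 7.11 ± 0.569 FPKM (limma adjusted p = 0.0044). Nfatc2, a calcium-driven factor of T cell activation, was lower (limma adjusted p = 0.030), a call lost without any library but WT library 1 (0.070 to 0.12). Tox, a driver of the exhausted state, ranged from 5.55 to 7.72 FPKM among WT and from 5.07 to 6.06 FPKM among DKO libraries, with overlap.

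**Figure D3:**
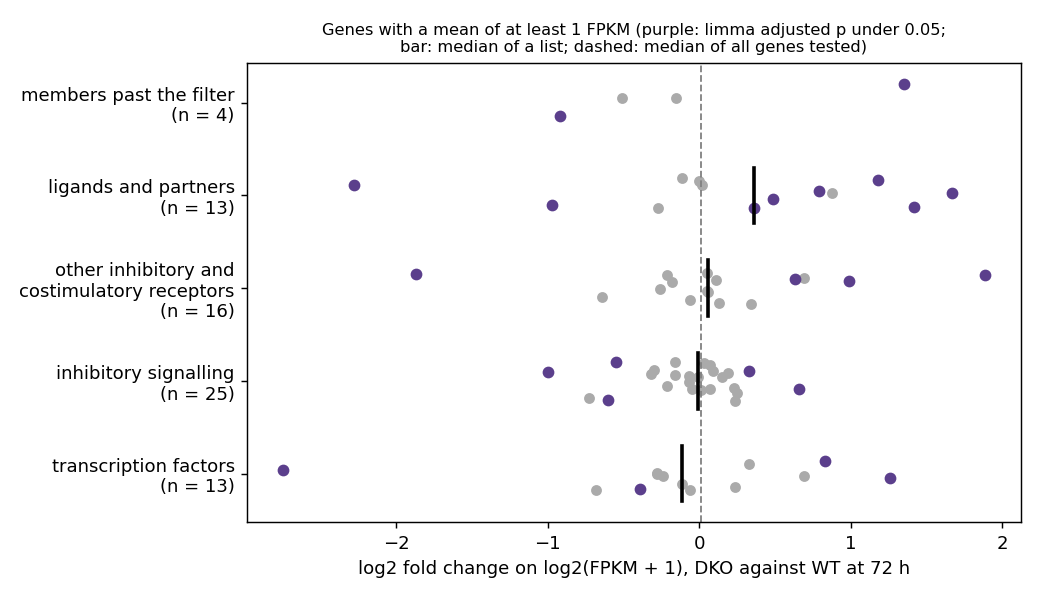
Log2 fold changes of DKO against WT at 72 h on log2(FPKM + 1) for the 4 members and the genes of 4 lists that averaged 1 FPKM or more (horizontal axis), in purple where limma's adjusted p is under 0.05. The lists' medians lie at 0.36, 0.06, -0.01 and -0.11 from top to bottom, and the dashed line is the median of all genes tested at 0.01.

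The members lie on 6 chromosomes (GENCODE M21, GRCm38), and 2 of them are neighbours. Btla (chromosome 16, 45224315 to 45257670, plus strand) and Cd200 (chromosome 16, 45382135 to 45409053, minus strand) are separated by 124.5 kb with no other protein-coding gene of the table between them. At 72 h both were lower in every DKO library than in every WT library. So were 17.1% of genes averaging 1 FPKM or more and 11.7% of those averaging 0.1 to 1 FPKM. Cd200 was not called at the filter of 0.1 FPKM (limma adjusted p = 0.18). Atg3, 35.8 kb to the other side of Btla, ranged from 26.5 to 30.2 FPKM among WT and from 25.4 to 28.0 FPKM among DKO libraries. Cd101 (chromosome 3, 100993529 to 101029556, minus strand) has Ttf2 at 23.9 kb, which went the other way, with 10.5 to 12 FPKM among WT and 5.83 to 6.85 FPKM among DKO libraries. Ptgfrn, 10.7 kb to its other side, had 0.613 to 0.832 FPKM among WT and 0.395 to 0.559 FPKM among DKO libraries. It was thus lower with no overlap, as were 11.7% of genes averaging 0.1 to 1 FPKM. It did not pass in the authors' deposited table (q = 0.18). Lag3 (chromosome 6, 124904361 to 124911705, minus strand) has Ptms at 2.0 kb and Cd4 at 16.1 kb on its other side. Ptms ranged from 9.24 to 19.7 FPKM among WT and from 8.97 to 14.7 FPKM among DKO libraries, with overlap. At 72 h Cd4 and Lag3 were each higher in every DKO library than in every WT library. Cd4 reached no more than 1.90 FPKM, and the margin of Lag3 was small. Of genes averaging 0.1 to 1 FPKM, 9.32% were higher in DKO with no overlap. Neither Cd4 nor Lag3 was called at the filter of 0.1 FPKM (limma adjusted p = 0.15 and 0.41). Neighbours were looked up after the members' values were seen.

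The genes whose profile over the 6 libraries was most like that of a member were found by the root mean square distance between centred log2(FPKM + 1) values. For Btla they were Wdhd1 (0.059), which acts at the DNA replication fork, and Fbxo48 (0.076). For Cd101 they were Snx9 (0.11) and Irak2 (0.13), which stood at 25.2 to 26.7 and 14.1 to 17.1 FPKM in the DKO libraries. For Cd160 they were Mccc2 (0.089) and Klhdc2 (0.10), and for Tigit Npff (0.067) and Klhdc9 (0.11). These distances describe 6 libraries that share the genotype split and library scaling.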

How the data were processed

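Values came from 1 workbook that the authors deposited, with FPKM per library and, for each pair of groups, a log2 fold change, a p-value and a q-value, per the file headers. Tools listed in the submitters' processing notes are TopHat2 2.1.0, Cuffdiff 2.2.1 and FastQC, beside the genome builds mm9 and mm10, whose roles, like annotation and strand setting, are not given in the sources used here. Only the 6 FPKM columns of the run comparing both 72 h groups were used. The other 30 per-library columns, 18 of them at 0 h, were left out. Groups follow the sample titles, and column numbers do not identify a titled replicate.

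The 10723 genes averaging 1 FPKM or more were fitted on log2(FPKM + 1) in limma 3.58.1 (R 4.3.3), trended prior, two-sided, Benjamini-Hochberg over all of them, threshold 0.05. FPKM are not counts, so no count model was used. Genes with an authors' p of 1 were taken as untested by the authors. Named genes are the 9 members, the 3 smallest p of each of 4 lists, the 2 closest profiles per tested member and called markers. Alternatives varied the pseudocount, filter, scaling, prior, block, libraries and caller. Members and lists were chosen with earlier results of these data known.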

Additional observations from a re-analysis of the deposited data

How the results depend on the processing

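Cd101 was called higher by limma in every alternative run except without WT library 0 and DKO library 2 together (log2 fold change of 1.30, adjusted p = 0.075), and the sign of Btla, Cd160 and Tigit was the same in all. The number of members called, 2, was 1 with no filter (Btla at adjusted p = 0.052), 1 with the replicate block, 1 to 2 with 1 library left out, 1 in the authors' deposited calls, and 3 at the authors' q under 0.05 alone (chosen after the data were seen). Without both libraries it was 0 by limma, with 2 at an unadjusted p under 0.05. The count over all genes, 1144, was 356 with the block, 388 to 765 with 1 library left out, 28 without both libraries (2462 against 2808 at an unadjusted p under 0.05), 603 in the authors' deposited calls and 1886 at their q under 0.05 alone. That of list genes, 21, was 7 with the block, 7 to 14 with 1 library left out and 0 by limma without both libraries, with 28 at an unadjusted p under 0.05. The block used the column numbers, which are not known to pair the libraries. Deviations of same-numbered WT and DKO columns correlated at -0.17, 0.04 and -0.01, and those of differently numbered columns at -0.12 to 0.13. Whether the libraries were paired was not tested. Of the 9 members 5 lay under 1 FPKM, where small differences were not detectable with 3 libraries a group. Leaving out 1 library leaves 2 in its group. Leaving out WT library 0 and DKO library 2 leaves 2 in each group, and no other pair was left out. The cause of these shifts, group size included, was not tested.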

Other observations

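Ligands of the members were transcribed in the same cultures. For Cd274, which encodes PD-L1, WT libraries 0, 1 and 2 held 16.3, 16.7 and 10.2 FPKM, and DKO libraries 0, 1 and 2 held 11.5, 36.5 and 44.9 FPKM. DKO library 0 lay within the WT range and the other 2 DKO libraries above it, and the gene was not called (limma adjusted p = 0.33). Lgals9, which encodes galectin-9, a ligand of TIM-3, ranged from 82.3 to 90.2 FPKM among WT and from 84.3 to 91.9 FPKM among DKO libraries, with overlap. Fgl1, a ligand of LAG-3, was listed at 0 in all 6 libraries. These genes were named with their values known.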
